A study of Mus musculus with 6 samples.

Results

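The MHC class II genes and Ciita form a set of 8 mouse genes, H2-Aa, H2-Ab1, H2-Eb1, H2-DMa, H2-DMb1, H2-DMb2, Cd74 and Ciita, out of the 32285 genes that the count matrices list. They were taken by symbol and read in every cell class and library, with endothelial and antigen-presenting classes side by side. They are described together because most of them had been found lower in general capillary endothelial cells (gCap) after neonatal hyperoxia. The set was thus chosen by its measured hyperoxia over room air levels in gCap, and that comparison of these genes is given as a description in every class: fitted differences and counts of calls are printed without p-values, and nothing is read from the calls. All 8 symbols were found, and their Ensembl identifiers matched the GENCODE M21 annotation of GRCm38.

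The study measured single-cell gene expression in lungs of WT C57BL/6N mice to compare how female and male animals recover from oxygen injury at birth. Live cells were sorted from dissociated lung, and each of the 6 libraries (10x Genomics 3′ v3.1) came from the pooled lungs of 3 mice. Female and male pups kept in room air (21% oxygen) were taken at postnatal day 1 and at day 21. Female and male pups exposed to 95% oxygen from day 1 to day 5 and then returned to room air were taken at day 21. All animals shared the strain and carried no engineered allele. With 1 library for each sex and condition, there is no replicate within a group, and a library is an average over 3 animals.

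Class II molecules are pairs of an alpha and a beta chain that show peptides from ingested protein to CD4 T cells. H2-Aa and H2-Ab1 encode the chains of I-A. H2-Eb1 encodes the beta chain of I-E, whose alpha chain is not made in mice of this haplotype. Cd74, the invariant chain, fills the groove until the molecule reaches the endosome, and H2-DM, built from H2-DMa with H2-DMb1 or H2-DMb2, then exchanges its remnant for peptide. Ciita is the coactivator that switches the whole set on, acting with RFX, NF-Y and CREB proteins bound to the X and Y boxes of these promoters. Dendritic cells, B cells and some macrophages carry class II at all times. Endothelial and epithelial cells can acquire it, interferon-gamma being the best known inducer of Ciita, and alveolar type 2 cells (AT2) express it in the healthy lung.

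Since Ciita acts through promoter elements that its targets share, the stretch before the start site is shown for 3 members. The sequences are RefSeq promoters of build GRCm38.p6, available for 5 of the 8 members (H2-Aa, H2-Eb1, H2-DMa, H2-DMb1 and H2-DMb2). Capitals mark the core of the Y box, GATTGG on either strand (CCAATC on the other), and the core of the X box.
H2-Aa (chr17:34287839-34287933, minus strand): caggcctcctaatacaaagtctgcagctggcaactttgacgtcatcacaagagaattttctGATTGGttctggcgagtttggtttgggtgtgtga
H2-Eb1 (chr17:34305757-34305851, plus strand): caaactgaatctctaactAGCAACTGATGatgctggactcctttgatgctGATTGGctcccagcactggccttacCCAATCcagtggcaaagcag
H2-DMb2 (chr17:34145139-34145233, plus strand): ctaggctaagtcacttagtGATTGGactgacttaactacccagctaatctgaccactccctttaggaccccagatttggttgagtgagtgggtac
The windows of H2-Aa and H2-Eb1 lie upstream of those genes as annotated. That of H2-DMb2 lies before the RefSeq start but inside the GENCODE gene, which begins further upstream. Counting back from the start site, the Y box core began at -49 in H2-Aa, at -60 in H2-Eb1 and at -91 in H2-DMb2. H2-Eb1 had an X box core at -92, so that the cores began 32 bases apart. H2-DMb1, whose window is not printed, had an X box core at -95 (AGTAACTGATG) and a Y box core at -62. H2-DMa had neither at its first start and a Y box core at -199 of its second. A Y box core on either strand was found in 16.1% of all 32851 RefSeq mouse promoters of the same length and an X box core in 3.09%. A match is a description of letters, and a window without one says nothing of binding by RFX or NF-Y.

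The genes lie in 3 places of the GRCm38 genome. H2-DMa (ENSMUSG00000037649, chromosome 17, 34119541 to 34139101), H2-DMb2 (ENSMUSG00000037548, 34143307 to 34151555), H2-DMb1 (ENSMUSG00000079547, 34153072 to 34160230), H2-Ab1 (ENSMUSG00000073421, 34257689 to 34269419), H2-Aa (ENSMUSG00000036594, 34282744 to 34287823) and H2-Eb1 (34305867 to 34316674) follow each other on chromosome 17. Ciita (ENSMUSG00000022504) lies on chromosome 16 from 10480059 to 10528418, and Cd74 on chromosome 18 from 60803848 to 60812652. The aligned transcripts of H2-DMb1 and H2-DMb2 were 94.4% identical over their whole length and 69.4% over the last 400 bases, where 3′ libraries read, so their counts may be partly exchanged. An antisense gene overlaps H2-Eb1, and whether the counting used strand is not given in the sources used here.

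The matrices held 122173482 to 163649658 unique molecular identifiers (UMIs, counted molecules) per library, and 55882 cells carried a class name from the authors, with a median of 8329 to 9703 UMIs per cell in a library. No class was given to as many as 32.8% of barcodes in a library. Libraries shared 9 to 37 cell barcodes in pairs, at most 0.376% of the smaller library. The gCap class carried the markers of its label in every library. All 5 pan-endothelial markers (Pecam1, Cdh5, Cldn5, Tie1 and Emcn) and all 6 gCap markers were detected, at summed levels of 4794 to 6886 and 3524 to 7898 UMIs per 1000000 UMIs of the class (CPM). Markers of B cells summed to 11.2 CPM in male room air gCap of day 21 against 2.71 to 5.58 in the others. Pan-immune markers summed to 38.1 against 35.1 to 115, and dendritic markers to 211 against 38.8 to 266. The level of each dendritic marker is not given here. The part of these cells in the gCap values was not tested beyond leaving out Ptprc-positive cells or doublets.

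In gCap, all members except H2-DMb2 were near 0 at day 1, present at day 21, and highest by far in the male room air library. Levels below are given in the order female and male at day 1, female and male room air at day 21, then female and male hyperoxia. Ciita, the coactivator, stood at 0.157, 0, 8.61, 24.4, 2.26 and 3.28 CPM. Both room air libraries of day 21 lay above both hyperoxia libraries, and the day 1 libraries held 2 and 0 UMIs in all. Exact 95% intervals of the counts, for sampling of molecules alone, were 7.26 to 10.1 and 21.6 to 27.4 CPM in room air and 1.67 to 2.99 and 2.58 to 4.12 after hyperoxia.

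Among the antigen-presenting chains, H2-Ab1 stood at 2.59, 1.63, 48.8, 222, 22.5 and 24.7 CPM and its partner H2-Aa at 0.314, 0.306, 25.1, 148, 11.5 and 12.1. H2-Eb1 stood at 0.707, 0.714, 13.5, 76.8, 7.15 and 7.62. For each chain the female room air library was the lower of the room air pair and lay above both hyperoxia libraries, in the comparison that chose the members. Cd74 followed the same order, with 2.91, 3.06, 37.0, 181, 21.4 and 21.8 CPM.

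The genes of the peptide exchanger differed from each other in level. H2-DMa stood at 1.96, 2.86, 10.2, 41.7, 7.89 and 7.75 CPM, and H2-DMb1 at 0.314, 0.612, 5.90, 20.0, 1.71 and 1.88. The room air libraries again lay above the hyperoxia libraries, but for H2-DMa the female pair was close, 10.2 against 7.89. H2-DMb2 gave 0 to 7 UMIs in a gCap sum, at most 0.599 CPM, and its intervals overlapped in all day 21 libraries. Without the cells holding a UMI of Ptprc, the pan-leukocyte CD45 gene, H2-Ab1 in male room air gCap was at 225.9 CPM and Ciita at 23.1.

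**Figure D1:**
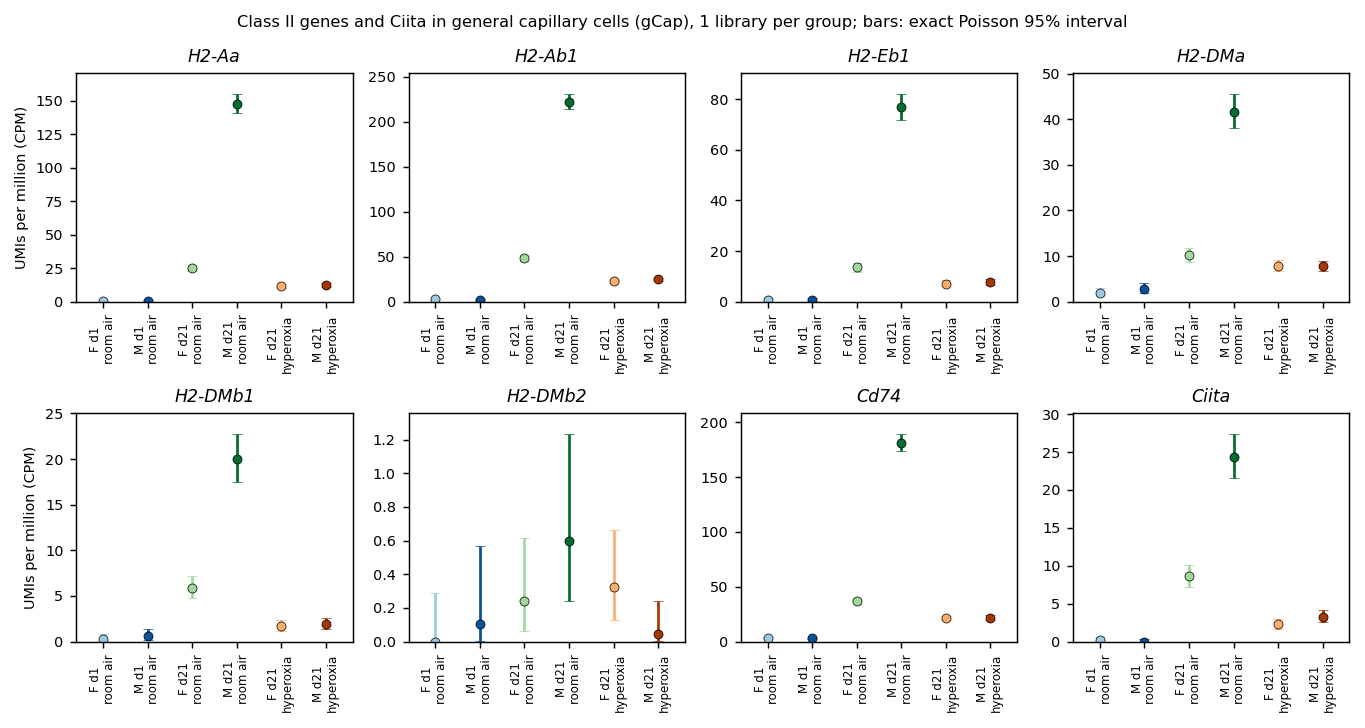
Level of each member in gCap (y axis, CPM, linear and with its own range in each panel) in the 6 libraries (x axis, F female, M male, d1 and d21 day 1 and day 21); points are single libraries and bars exact Poisson 95% intervals. In each panel but that of H2-DMb2 the male room air library of day 21 stands far above the others, and the female room air library lies between it and the hyperoxia pair.

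The 7 members other than H2-DMb2 were lower in the hyperoxia than in the room air library of both sexes, and by more in males. Within females, H2-Ab1 was 2.17-fold lower after hyperoxia (95% interval from the counts 1.93 to 2.43), Cd74 1.73-fold (1.53 to 1.96), Ciita 3.81-fold (2.74 to 5.38) and H2-DMa 1.29-fold (1.04 to 1.61). Within males, H2-Ab1 was 8.998-fold lower (8.21 to 9.87), Cd74 8.32-fold (7.54 to 9.19), Ciita 7.43-fold (5.74 to 9.71) and H2-DMa 5.38-fold (4.52 to 6.42). H2-Aa showed the widest gap between the sexes, 2.18-fold in females and 12.2-fold in males. In the edgeR fit over both sexes the log2 differences ran from -1.49 (H2-DMa) to -2.69 (H2-DMb1), with a median of -2.29 over the 7 that passed the filter on low counts. The median over all genes tested was -0.00466. These values depended on the male room air library: the median was -1.03 without it and -3.21 without the female one.

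The male library was the higher one in room air, while after hyperoxia the 2 sexes lay close together. At day 21 in room air, gCap of the male library held 5.91 times the H2-Aa of the female library (95% interval from the counts 5.31 to 6.59), 4.55 times the H2-Ab1 (4.21 to 4.93), 4.91 times the Cd74 (4.48 to 5.37) and 2.83 times the Ciita (2.31 to 3.49). After hyperoxia the male over female ratios were 1.06 for H2-Aa (0.886 to 1.26), 1.097 for H2-Ab1 (0.970 to 1.24) and 1.02 for Cd74 (0.898 to 1.16), and Ciita had the highest, 1.45 (1.0002 to 2.13). Each ratio compares 1 library with 1 library, so the difference between pools of mice is inside it.

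More gCap cells carried the transcripts in room air, and single cells carried more of them. To compare libraries at equal depth, each cell was thinned to 2000 UMIs, and cells below that depth were left out (9 to 129 per library). H2-Ab1 was then detected in 0.770% and 0.193% of gCap cells at day 1, in 9.36% (exact binomial 95% interval 8.04 to 10.8) and 24.1% (21.9 to 26.4) in room air at day 21, and in 4.09% (3.34 to 4.96) and 4.23% (3.52 to 5.03) after hyperoxia. Without thinning the 6 shares were 1.55%, 0.951%, 24.4%, 40.7%, 14.2% and 13.6%. In neutrophils, which should lack class II, the thinned share was 2.33% to 2.72% at day 21, below every gCap library of that age, though in female hyperoxia the intervals of gCap and neutrophils (1.60 to 3.81) overlapped. Neutrophils were shallower, with median depths of 3410 to 5331 UMIs against 5203 to 8694 in gCap. Matrix fibroblasts, on 51 to 123 thinned cells, gave 2.06% and 11.8% in room air at day 21 and 4.63% and 2.44% after hyperoxia, females first. Their intervals overlapped those of gCap except in female room air, and in female hyperoxia their share was the higher.

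Ciita was found in a larger share of gCap cells than of neutrophils in each day 21 library, with intervals apart in room air alone. It was found in 1.42% (0.920 to 2.09) and 4.11% (3.14 to 5.28) of thinned gCap cells in room air and in 0.413% (0.198 to 0.758) and 0.490% (0.268 to 0.820) after hyperoxia. Neutrophils held it in at most 0.103%, and their upper limits of 0.424% and 0.330% after hyperoxia overlap the gCap intervals there. Without thinning, the hyperoxia shares were 1.81% and 2.37% in gCap against 0% and 0.0892% in neutrophils. The lowest gCap level of day 21, 2.26 CPM, lay above the highest neutrophil level, 0.293. Matrix fibroblasts held Ciita in 1.03% and 1.96% of thinned cells in room air, 1 cell each, with intervals that cover the gCap shares. At day 1 no thinned gCap cell held it, and 0 of 1947 and 0 of 1554 cells leave an exact upper limit of 0.189% and 0.237%. Cd74 behaved otherwise: its share in gCap was 6.64%, 4.34% and 4.23% in female room air, female hyperoxia and male hyperoxia, against 7.12%, 8.29% and 6.09% in the neutrophils of those libraries. Those 3 shares did not exceed the neutrophil shares, and the part of background in the Cd74 folds and ratios of those libraries was not tested. Only male room air gCap (16.7%) exceeded its neutrophils (5.99%). At day 1 neutrophils held Cd74 in 2.70% and 3.21% of thinned cells, against 0.616% and 0.515% of gCap, females first.

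**Figure D2:**
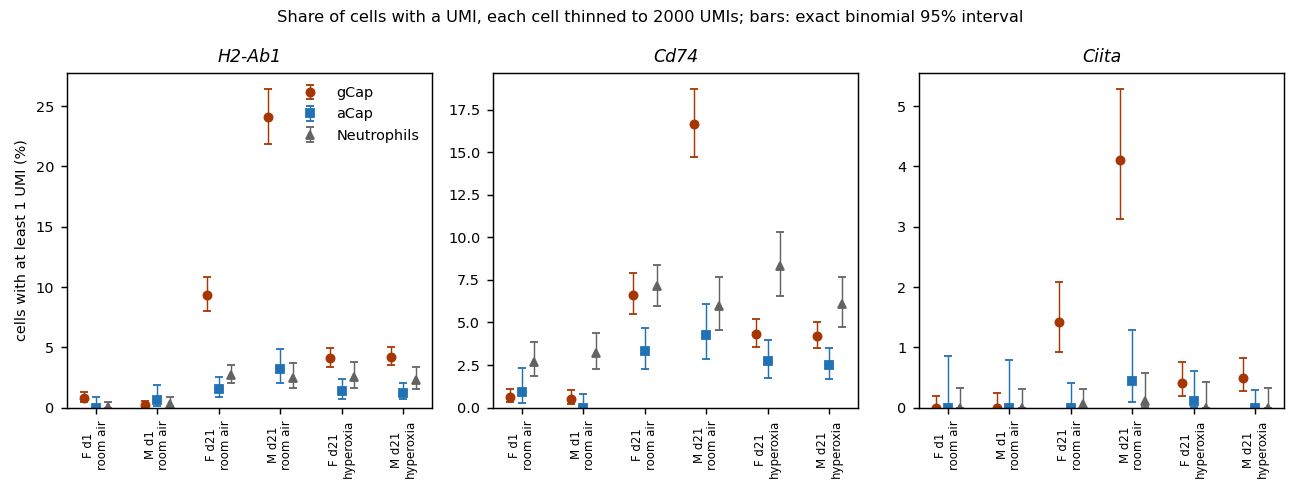
Share of cells with at least 1 UMI of H2-Ab1, Cd74 or Ciita (y axis, percent, its own range in each panel) in gCap, aCap and neutrophils of each library (x axis), each cell thinned to 2000 UMIs; bars are exact binomial 95% intervals. For H2-Ab1 and Ciita the gCap points of day 21 lie above those of neutrophils, while for Cd74 only the male room air gCap point does.

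Cells with 3 or more UMIs of H2-Aa, H2-Ab1 and H2-Eb1 together made up 9.25% of female room air gCap (165 cells), 30.8% of male room air (439), 2.63% of female hyperoxia (64) and 2.68% of male hyperoxia (77). At day 1 there was 1 such cell. In male room air their sum held 1291 CPM of Pecam1, 1726 of Cdh5 and 1406 of Gpihbp1, beside 1300, 1787 and 1581 in cells with none of the 3 transcripts, while the capillary gene Plvap was at 783 against 1092. Ptprc was found in 7.06% of them and in 7.46% of the cells with none. The B cell gene Cd79a was at 9.51 against 3.25 CPM there and at 11.1 against 0.860 in male hyperoxia, and Ptprc at 30.9 against 12.1 CPM in female hyperoxia. Their part in the class II counts was not tested. The other genes of the set were higher in the same cells. Ciita was at 65.8 against 2.71 CPM, Cd74 at 501 against 19.9 and H2-DMa at 106 against 8.49. In that library the same cells held more class I and interferon-induced transcripts, with H2-K1 at 2068 against 936 CPM, Gbp4 at 254 against 54.7 and Nlrc5 at 83.5 against 16.4. In the other day 21 libraries the gap was smaller: in female room air, female hyperoxia and male hyperoxia, Nlrc5 was at 36.7 against 22.2, 21.1 against 10.04 and 11.1 against 10.3 CPM, and Gbp4 at 68.7 against 50.6, 42.3 against 37.2 and 71.3 against 33.3. The split uses the class II counts of the cells themselves and was not tested.

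In the male room air library, the top 15 gCap cells by count held 11.2% of the H2-Ab1 UMIs, and no cell held more than 34. In the other day 21 libraries the 18 to 29 highest cells held 16.2% to 21.5%, with at most 7 to 10 UMIs in a cell.

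In arterial endothelium H2-Ab1 and Ciita were lower than in gCap in each day 21 library. H2-Ab1 stood at 1.06, 0.787, 38.7, 133, 14.5 and 16.5 CPM, and Ciita at 0, 0, 5.04, 10.2, 2.21 and 1.52. Both room air libraries of day 21 lay above both hyperoxia libraries, and the male one was again highest. Cd74 did not follow them in females, with 27.7 CPM in room air and 28.4 after hyperoxia, while in males it was 66.4 and 20.0. The 6 members that passed the filter gave log2 differences from -0.89 (Cd74) to -2.40 (H2-Ab1), and the fit called all of them, as it did all 7 in gCap. Over the 14 classes tested, 14 of the 85 member and class pairs that passed were called, all lower after hyperoxia, of 112 pairs in all. The fit called 2.53% of all genes in gCap, 2.12% in arterial cells and 2.28% of gene and class pairs overall. The fourteenth call was Ciita in classical monocytes. Since this comparison chose the members, nothing is read from these counts.

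Aerocytes (aCap), the gas-exchange capillary cells that lie beside gCap, held less. H2-Ab1 stood at 0.701, 1.42, 9.17, 30.3, 7.32 and 8.64 CPM and Ciita at 0, 0, 0.428, 2.96, 0.665 and 0.462. Male room air was again highest. In males the ratio was large (H2-Ab1 3.51-fold lower after hyperoxia, 2.83 to 4.37), and in females the interval of the ratio included no change (1.25-fold, 0.936 to 1.68). The thinned share of aCap cells with H2-Ab1 was 1.24% to 3.24% at day 21, at or below the neutrophil share or inside its interval, so the thinned aCap share is not told apart from background. Without thinning, 14.4% of male room air aCap cells held H2-Ab1, and the levels of that library (30.3 CPM of H2-Ab1 and 2.96 of Ciita) lay above the highest neutrophil levels (13.7 and 0.293).

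Venous endothelium, with 54 to 112 cells per library at day 21, departed from gCap in females. H2-Ab1 stood at 27.9, 87.1, 52.4 and 29.1 CPM in female and male room air and female and male hyperoxia, and Cd74 at 48.2, 121, 118 and 20.0. The hyperoxia library was thus the higher of the female pair and the lower of the male pair for both genes. In the same order these levels rest on 22, 51, 45 and 32 UMIs of H2-Ab1 and 38, 71, 101 and 22 of Cd74. Ptprc was found in 4.29%, 7.41%, 8.43% and 3.57% of venous cells, at 50.7, 8.54, 48.9 and 25.5 CPM. In the female pair its share of cells was thus higher after hyperoxia, while its level was not. The part of leukocytes in the venous values was not tested. The 23 to 64 lymphatic cells per library are not compared, because 25.0% to 70.3% of them held Ptprc.

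The age comparison asked which members changed between day 1 and day 21 in room air, with sex as a covariate. The day 21 room air libraries are also those of the comparison that chose the members, so the p-values are not independent of that choice. By edgeR, every member that passed the filter rose in each endothelial class, 7 in gCap, 6 in arterial cells and 5 each in venous cells and aCap. DESeq2 did not call Ciita in arterial cells (adjusted p 0.247), H2-Aa (0.109) and H2-DMa (0.207) in venous cells or H2-DMa in aCap (0.130), and venous H2-DMa was also not called by edgeR without female day 1. In neutrophils, the class set beside gCap above, 4 of the 5 members that passed rose too. On the log2 scale the rise was 3.57 for H2-Aa, 3.45 for H2-Ab1, 2.97 for H2-Eb1 and 1.02 for Cd74, with a median of 2.97 over the 5. The part of background in the endothelial values was not tested. In gCap, edgeR's quasi-likelihood test gave log2 differences of 5.54 for H2-Ab1 (SE 0.248, adjusted p 2.42e-25), 4.77 for Cd74 (SE 0.227, adjusted p 3.19e-24) and 3.11 for H2-DMa (SE 0.241, adjusted p 3.86e-16). The day 21 level exceeded the day 1 level in both sexes for each of the 7 members that passed. For genes with only a few UMIs at day 1 the fitted difference depends on the small count that edgeR adds. For Ciita the female ratio was 54.8 (95% interval from the counts 14.9 to 457), and the male level was at least 79.7-fold higher than the floor of 3 UMIs in the day 1 library, which held none.

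Without male room air at day 21, the gCap differences were 4.39 for H2-Ab1, 3.52 for Cd74, 1.99 for H2-DMa and 6.36 for Ciita on the log2 scale, and each was still called. For Cd74 this value rests on female room air gCap, whose share of cells did not exceed that of neutrophils. The medians over the members that passed were 5.54 in gCap, 6.34 in arterial, 4.72 in venous and 4.05 in aCap. Over all genes of those classes they were 0.0198, 0.0126, -0.00178 and 0.0330. The rise was not particular to endothelium. The medians of the members were 4.01 in matrix fibroblasts, 3.52 in myofibroblasts, 3.20 in natural killer cells, 2.41 in alveolar macrophages and -1.06 in B cells. Over 10 classes, 50 of 56 pairs that passed were called, 44 higher and 6 lower, of 80 pairs in all. The share of all gene and class pairs called was 54.3%, with 28.6% called higher and 25.7% lower. A member that is absent at day 1 passes the filter through day 21 alone, so the count describes the set and is no support for a rise. The lower calls were 5 in B cells and H2-DMa in natural killer cells. Age cannot be told apart from the software version named in the file headers (Cell Ranger 6.0.0 at day 1, 7.0.1 at day 21).

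The sex comparison, over all 6 libraries with condition as a covariate, called no member: 0 of 59 pairs that passed in 10 classes, where 0.105% of all gene and class pairs were called. At an unadjusted p under 0.05 there were 22 pairs, 21 of them lower in females, and DESeq2 also called 0. In gCap the female over male log2 differences ran from -1.48 (H2-Aa, SE 0.415, edgeR adjusted p 0.462) to -1.01 (H2-DMa, SE 0.334, edgeR adjusted p 0.510). They rest on room air at day 21: without the male library of that group the value for H2-Ab1 was -0.02 in place of -1.13, and without the female one -0.05. The smallest adjusted p was that of H2-Ab1 in arterial cells (log2 difference -1.21, SE 0.259, edgeR adjusted p 0.0808). Leaving out 1 library gave 16 calls (female hyperoxia), 15 (male hyperoxia), 8 (either day 1 library), 2 (female room air at day 21) or 0 (male room air at day 21), and dropping the filter on low counts gave 15. The share of all genes called in those fits, or at an unadjusted p under 0.05, is not given here. Nothing is therefore read from those counts.

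Set beside the antigen-presenting classes, endothelial levels were low. At day 21, over class sums of at least 50 cells, H2-Ab1 was at 8896 to 9447 CPM in dendritic cells (3 libraries), 2180 to 3593 in the class named interstitial macrophages 2 (2 libraries), 1308 to 1700 in B cells (4) and 393 to 471 in AT2 (3). Type 1 alveolar cells held 74.5 in their only such library. Venous cells (27.9 to 87.1), gCap (22.5 to 222) and arterial cells (14.5 to 133) came next and overlapped each other. Alveolar macrophages (11.3 to 20.3), neutrophils (8.999 to 13.7) and aCap (7.32 to 30.3) were lower still and overlapped. The ranges of the top 4 classes did not overlap with each other or with those of the endothelial classes, though some gaps were smaller than the spread within a class. Male room air gCap, the highest endothelial sum, lay at 222 CPM, below the 393 of the lowest AT2 library.

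Cd74 and Ciita placed the same 3 classes at the top. Cd74 was at 24674 to 25693 CPM in dendritic cells, 8525 to 12818 in interstitial macrophages 2 and 7128 to 10046 in B cells, the last 2 overlapping. Ciita was at 274 to 372, 101 to 175 and 85.4 to 115 CPM. In AT2, whose class II is part of their normal program, Cd74 reached 2665 to 3072 CPM but Ciita only 6.20 to 20.0, which overlapped the 2.26 to 24.4 of gCap. H2-DMa followed another order, with 132 to 182 CPM in alveolar macrophages and 132 to 175 in classical monocytes, both of which held little H2-Ab1 (at most 20.3 and 18.7 CPM).

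**Figure D3:**
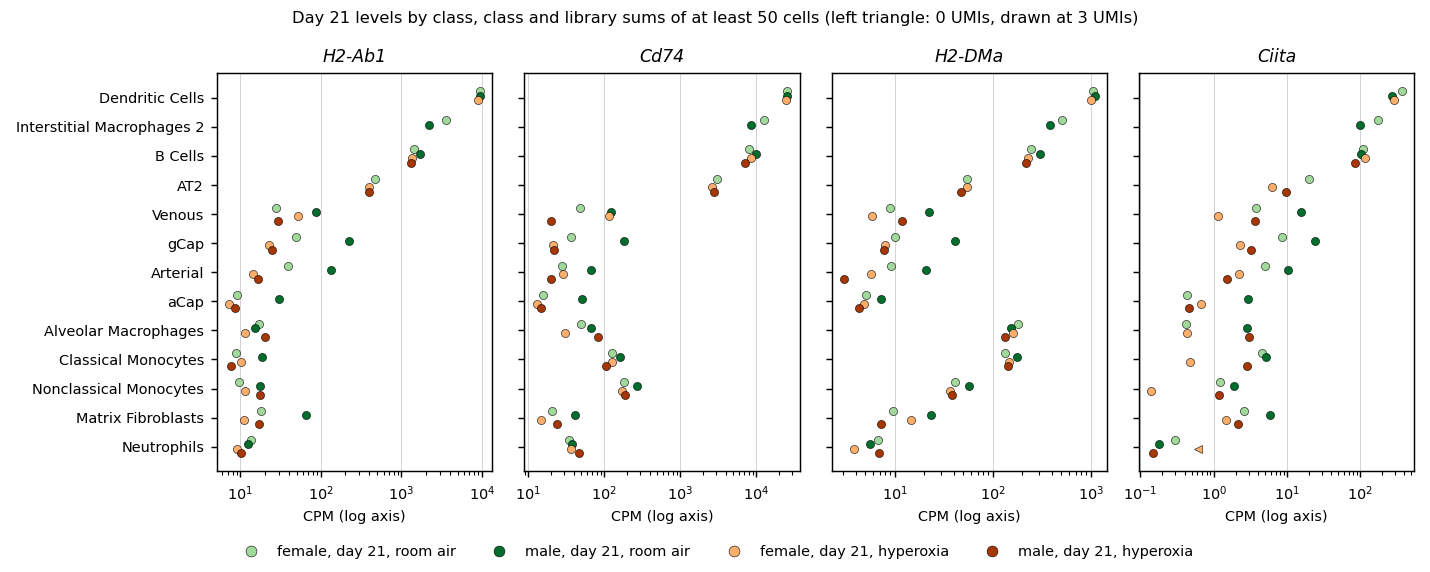
Levels of H2-Ab1, Cd74, H2-DMa and Ciita at day 21 (x axis, CPM on a log scale) in 13 classes (y axis); each point is 1 library with at least 50 cells of the class, coloured by sex and treatment, and a left triangle marks a sum with 0 UMIs, drawn at the level of 3 UMIs. Dendritic cells, interstitial macrophages 2, B cells and AT2 hold the highest H2-Ab1 and Cd74. The male room air point is the highest of gCap, arterial, venous, aCap and also matrix fibroblasts in all 4 panels.

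The presenting classes gave these values by treatment. Dendritic cells held H2-Ab1 at 9447 and 9392 CPM in female and male room air and 8896 in female hyperoxia, and Cd74 at 25693, 25599 and 24674. The male hyperoxia library had only 14 cells named dendritic and is left out of that range. B cells held H2-Ab1 at 1439, 1700, 1366 and 1308 CPM. AT2 held H2-Ab1 at 471 in female room air and at 393 and 400 after hyperoxia, with 7 cells in male room air.

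In AT2 the levels were higher at day 21. Cd74 was at 106 and 209 CPM at day 1 and at 3072 in female room air at day 21, and H2-Aa went from 3.15 and 12.3 CPM to 719. H2-DMb1 went from 5.52 and 4.75 CPM to 71.9. At day 1 a separate class, AT2 Lyz1+, held most type 2 cells (407 and 1021 cells, against 54 and 629 in AT2), with Cd74 at 163 and 296 CPM and H2-Aa at 10.1 and 24.2. It is listed at day 1 and not at day 21, and the values of AT2 at the 2 ages do not cover the same grouping of type 2 cells. The small number of cells in male room air kept AT2 out of the age fit. Alveolar macrophages held H2-DMa at 136 and 110 CPM at day 1 already, when H2-Aa was at 0 in both libraries. At day 21 they held H2-DMa at 182 and 153 CPM and H2-Aa at 15.9 and 21.1.

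The proportions of the genes differed between classes. Counts of different genes are compared here without a correction for length. Intron counting is not given in the sources used here, and the part of gene length in these ratios was not tested. In gCap there were 0.758, 0.816, 0.949 and 0.883 Cd74 UMIs per H2-Ab1 UMI in female and male room air and female and male hyperoxia. Dendritic cells had 2.72 to 2.98 (the male hyperoxia library with its 14 cells included, here and in the ratios that follow), B cells 5.45 to 6.36, AT2 6.53 to 7.04 and classical monocytes 8.59 to 14.3. In gCap of all but male room air the share of cells with Cd74 did not exceed that of neutrophils, and the part of background in these counts was not tested. gCap lay below dendritic cells, B cells, AT2 and classical monocytes in all 4 libraries, and below aCap (1.66 to 1.77). The low ratio was not particular to gCap: venous cells had 0.688 to 2.24 and matrix fibroblasts 0.622 to 1.375. Neutrophils had 2.54 to 4.59, apart from gCap in every library. In arterial cells the ratio was 0.715 and 0.498 in room air and 1.96 and 1.22 after hyperoxia. In arterial cells and gCap alike, both hyperoxia libraries had the higher ratio.

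The amount of Ciita per Cd74 ran the other way. gCap had 0.233, 0.134, 0.106 and 0.151 Ciita UMIs per Cd74 UMI. Dendritic cells had 0.0103 to 0.0145, B cells 0.0103 to 0.0137 and AT2 0.00233 to 0.00650. Every gCap library lay above every library of those 3 classes, male room air (0.134) included. The ratio was not particular to gCap: arterial cells had 0.0759 to 0.182 and matrix fibroblasts, on 2 to 4 Ciita UMIs, 0.0909 to 0.143. The I-A chains also differed, with 0.491 to 0.667 H2-Aa per H2-Ab1 in gCap against 0.899 to 0.977 in dendritic cells, 1.15 to 1.25 in B cells and 1.51 to 1.53 in AT2. Arterial cells (0.454 to 0.804), aCap (0.626 to 0.703) and classical monocytes (0.522 to 0.621) overlapped gCap. H2-DMb1 exceeded H2-DMb2 by 3.70 to 4.24 times in dendritic cells and made up only 0.144 to 0.251 per H2-DMb2 UMI in B cells of day 21. In room air gCap the ratio was 24.5 and 33.4, on 4 and 7 UMIs of H2-DMb2. The ratios are descriptions over libraries and were not tested.

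**Figure D4:**
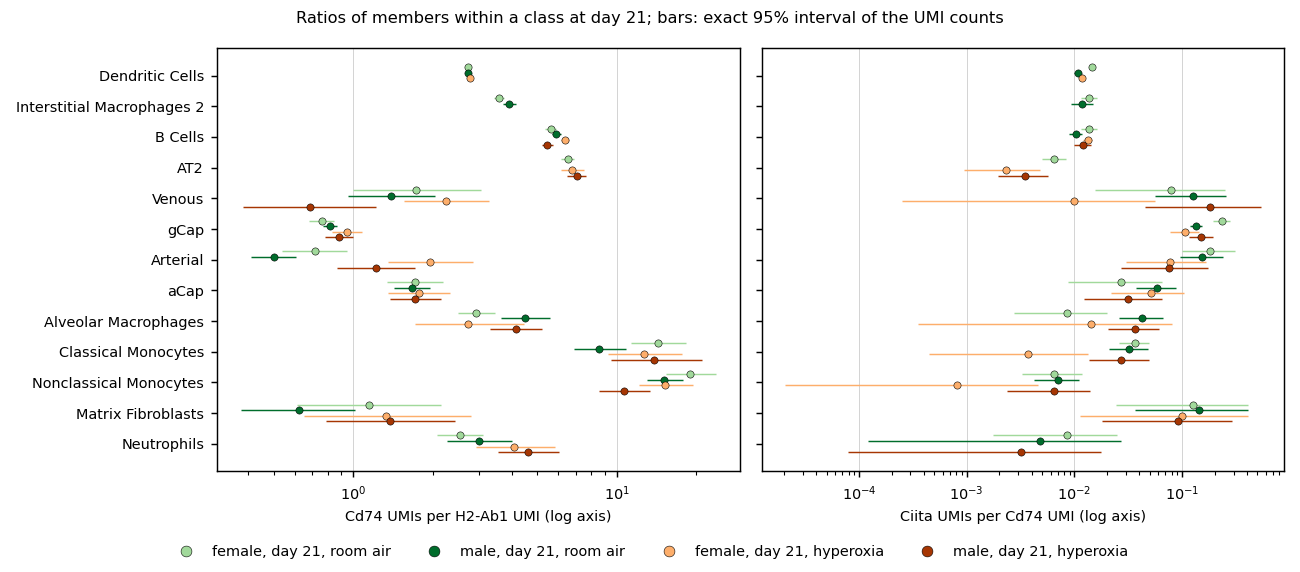
Cd74 UMIs per H2-Ab1 UMI (left) and Ciita UMIs per Cd74 UMI (right) at day 21 (x axes, log scale) in 13 classes (y axis); points are single libraries and bars exact 95% intervals of the 2 counts. gCap lies left of dendritic cells, B cells and AT2 in the left panel and right of them in the right panel.

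The B cell class was the exception to the rise with age, and its day 1 cells were of mixed kind. Over the class as named, H2-Ab1 stood at 3169 and 3703 CPM at day 1 and 1439 and 1700 in room air at day 21, a log2 difference of -1.30 (SE 0.157, edgeR adjusted p 1.38e-04). H2-Aa gave -1.09, H2-Eb1 -1.04, H2-DMa -1.17 and H2-DMb1 -2.92, all called. With doublets left out, H2-Aa (-0.27), H2-Ab1 (-0.58), H2-Eb1 (-0.19) and H2-DMa (-0.60) were no longer called, while H2-DMb1 was (-2.50). H2-DMb2 rose by 1.24 (SE 0.200, edgeR adjusted p 7.74e-04), while Cd74 (-0.24, edgeR adjusted p 0.142) and Ciita (0.21, edgeR adjusted p 0.370) did not pass. The share of all genes called in this class was 48.9%.

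At day 1, 46 of the female and 55 of the male cells of the class, 34.3% and 48.2%, held fewer than 3 UMIs of the B cell marker list, which includes Cd79a, together. Flt3, a dendritic cell marker, was found in 58.7% and 58.2% of them, and in 3.41% and 3.39% of the other cells of the class. They held H2-Aa at 5632 and 5647 CPM and H2-DMb1 at 662 and 617, against 811 and 668 and 48.1 and 26.1 in the cells with B markers. H2-DMb2 was alike in both, 112 and 103 against 113 and 102. At day 21 at least 98.8% of the class held B markers. With the cells holding B markers alone, an alternative chosen after seeing the data, H2-Aa rose by 1.18, H2-Ab1 by 0.88, H2-Eb1 by 1.29, H2-DMa by 0.88 and Cd74 by 0.74 on the log2 scale, each called by edgeR. Ciita rose by 1.69, also called, where it was not called in the class as named. H2-DMb1 gave 0.44 and was not called. The direction for H2-Aa, H2-Ab1, H2-Eb1, H2-DMa, H2-DMb1 and Cd74 in the class thus turned with its makeup.

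**Figure D5:**
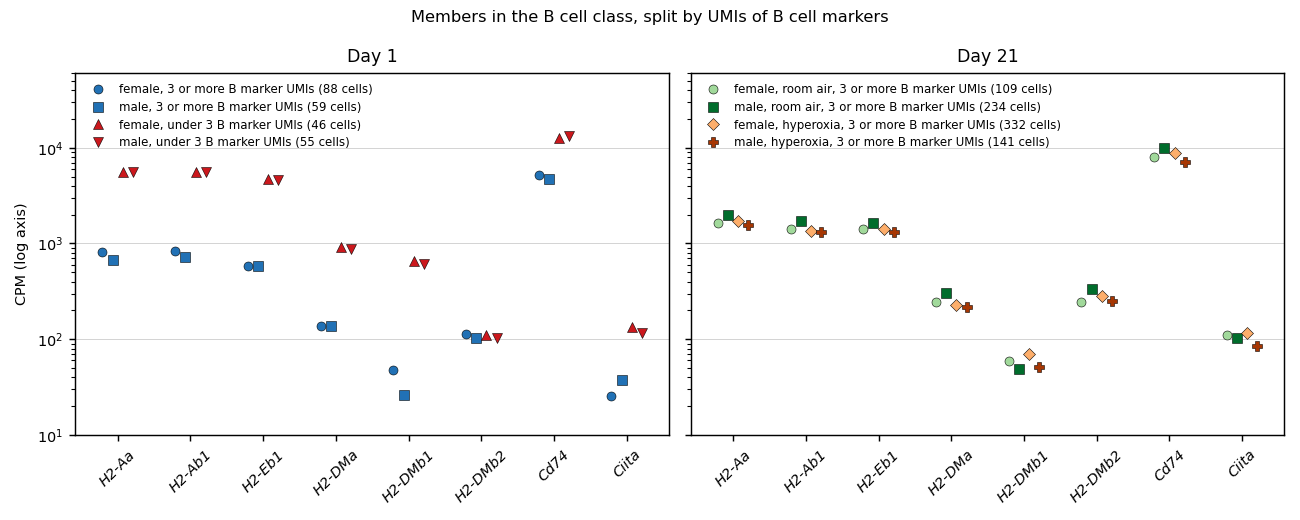
Levels of the 8 members (y axis, CPM on a log scale) in cells of the B cell class at day 1 (left) and day 21 (right), split by whether a cell held 3 or more UMIs of 4 B cell markers; each symbol is 1 library, and day 21 cells under 3 are not drawn. At day 1 the cells without B markers lie above those with them for each member except H2-DMb2.

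Some class I and interferon-induced genes were called lower after hyperoxia by edgeR in gCap, arterial cells and aCap. Of 64 other genes of antigen presentation and interferon-gamma signalling found in the files, the hyperoxia fit called 46 of 215 gene and class pairs in the 4 endothelial classes, all of them lower. The share of all gene and class pairs called lower in these classes was 0.714%. These lists were chosen with earlier results of these data known, and the libraries are those of the comparison that chose the members. The count and the p-values below are therefore not independent of that choice. At an unadjusted p under 0.05, 87 were lower and 3 higher. The share of all gene and class pairs at that threshold is not given here, and the 0.714% is a share of adjusted calls. gCap held 22 of the calls, arterial cells 15, aCap 9 and venous cells 0 (13 lower and 1 higher at an unadjusted p under 0.05, and 0 by DESeq2). Without the male room air library 22 pairs were called, of which 19 were among the 46. DESeq2 called 6, of which 3 were in gCap and 3 in aCap, and it called 0 of the 19 arterial pairs it tested. The fit without sex as a covariate called 4.

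In the class I list, 12 of 19 genes were called lower in gCap, 8 in arterial cells and 7 in aCap, with medians of -0.48, -0.29 and -0.48. Among the genes called in any list, the largest falls were those of H2-Q7, a class I-like gene, in aCap (log2 difference -1.95, SE 0.144, edgeR adjusted p 9.98e-04) and of H2-Q6 in aCap (-1.78, SE 0.199, edgeR adjusted p 0.00479), near-identical genes that can trade reads. Nlrc5, the class I counterpart of Ciita, fell by 1.77 in aCap (SE 0.316, edgeR adjusted p 0.0378), and H2-Q6 by 1.67 in gCap (SE 0.112, edgeR adjusted p 1.14e-09). The gCap levels of Nlrc5 were 0.864, 0.510, 22.3, 38.8, 11.2 and 10.4 CPM. H2-K1, a classical class I heavy chain, stood in gCap at 157, 141.4, 826, 1342, 660 and 648 CPM.

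Other interferon-gamma-induced genes were called lower in 8 of 10 cases in gCap, 7 of 8 in arterial cells, 2 of 10 in aCap and 0 of 8 in venous cells (5 lower at an unadjusted p under 0.05 by edgeR). DESeq2 called 0 of the 31 pairs it tested for this list, and its 6 calls were all in the class I list. Igtp, an interferon-induced GTPase, fell by 1.54 in gCap (SE 0.216, edgeR adjusted p 5.45e-05) and by 0.61 without the male room air library. Its levels were 12.6, 15.6, 22.4, 75.1, 15.04 and 13.96 CPM. Of the costimulation genes only Cd274, which encodes PD-L1, was called, in gCap (-1.16, SE 0.235, edgeR adjusted p 0.00432), and it is named because it is the only one. It was not called without the male room air library (edgeR adjusted p 0.126, and 8.37e-08 to 0.508 over all 12 alternatives). Ifng itself gave 0 to 2 UMIs in a gCap sum. In cells that make it, natural killer cells held it at 44.1 and 74.8 CPM in room air and 74.0 and 60.1 after hyperoxia, and T cells at 16.0 and 4.90 against 0.833 and 0.807.

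The proteins that hold Ciita to class II promoters gave no calls, where 1.58% of all gene and class pairs of the endothelial classes were called. A count of 0 in a list of this size is therefore near the background and no result about these genes. Of 27 pairs of the 7 genes Rfx5, Rfxank, Rfxap, Nfya, Nfyb, Nfyc and Creb1 with a class, edgeR called 0, with 1 at an unadjusted p under 0.05 and 0 by DESeq2. Their log2 differences ran from -0.45 to 0.62. Rfx5 in gCap stood at 6.44, 4.28, 5.42, 6.07, 4.24 and 4.03 CPM. The list of class II peptide loading and turnover, with cathepsins, H2-Oa and H2-Ob, gave 0 of 28 pairs, with 3 at an unadjusted p under 0.05 and 0 by DESeq2, and the same holds for it.

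With age most genes of the class I and interferon-induced lists rose, in the libraries that also show the rise of the members. Of 206 pairs, 129 were higher and 17 lower at day 21, where 30.2% and 27.6% of all gene and class pairs of these classes were called in those directions. All 64 calls in the class I list and all 30 in the list of other interferon-gamma-induced genes were higher, of 76 and 34 pairs. The largest rises were H2-Q6 (6.28, SE 0.633) and H2-Q7 (5.55, SE 0.312) in aCap, H2-Q6 (5.34, SE 0.228) in gCap, and Nlrc5 in venous cells (5.31, SE 0.941) and gCap (5.22, SE 0.273), each with an edgeR adjusted p of at most 1.33e-07. H2-Q6 in aCap and Nlrc5 in venous cells gave 0 and 1 UMI at day 1, so those 2 values depend on the added count. By edgeR the transcription factors were split, 7 pairs higher and 7 lower of 27, and so was the peptide loading and turnover list, 5 higher and 5 lower of 27. The largest falls were Socs1, an inhibitor of the interferon-gamma signal, in arterial (-1.49), venous (-1.22) and gCap cells (-0.93), Ctss, a cathepsin that trims Cd74, in aCap (-1.40), and Rfxap, an RFX subunit, in venous cells (-0.999), with edgeR adjusted p values of 1.06e-04 to 0.0225. DESeq2 called none of these 5 falls (adjusted p 0.0893 to 0.510). Ctss was not called by edgeR with doublets (-0.43) or Ptprc-positive cells (-0.45) left out, nor without female day 1 (-0.74), and Rfxap was not called with doublets left out (-0.72). Socs1 in arterial and venous cells and Rfxap each lost the call in 2 or 3 of the 4 fits without 1 library, those without female day 1 among them.

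The genes whose levels followed the set most closely were found by Pearson correlation of log2(CPM + 1) with the mean of the members. Over all 112 class and library sums and 11612 genes, they were Kmo (r = 0.85), Hepacam2 (0.84), Blnk (0.81), Fcrla (0.78), H2-Ob (0.75), Ero1lb (0.72), Siglecg (0.71), Irf4 (0.71), Cd209a (0.69) and Fgd2 (0.69). Over the 28 endothelial sums (6 each of gCap, aCap, arterial and venous cells, and 2 each of lymphatic and proliferating endothelial cells) and 10725 genes, they were H2-Q6 (0.93), H2-K1 (0.91), Gm15886 (0.90), Gm11250 (0.90), Nlrc5 (0.90), Gm4070 (0.89), Gbp8 (0.89), Irgm2 (0.89), Gm4951 (0.89) and Gvin1 (0.89). No gene was on both lists. Over the 24 sums without lymphatic and proliferating cells, an alternative added after seeing the data, 7 of these 10 genes were again among the first 10, led by Irgm2 (0.96). Classes of a library share its depth and chemistry, so these values are descriptions. Within the set and over endothelial sums, each member correlated with the mean of the others at 0.87 to 0.97, apart from H2-DMb2 at 0.01, whose counts were too few to show a pattern.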

How the data were processed

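Single-cell libraries (10x Genomics 3′ v3.1) of mouse lung were deposited as whole-number UMI counts per gene and barcode, not normalized, which the authors made with Cell Ranger, per the file headers version 6.0.0 at day 1 and 7.0.1 at day 21. The submitters' processing notes name Cell Ranger 6.0.0, Seurat 4.1.1 and mm10. Gene annotation, intron counting and strand use are not given in the sources used here. Cell classes are the authors' deposited annotation, and barcodes without a class entered no test. The other values in the deposited files (barcodes, gene identifiers and class names) are labels per the file headers.

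Counts were summed per library and class, and a class was tested only where each of the libraries in the fit held 50 or more of its cells. Sums were tested with edgeR 4.0.16 (filterByExpr, TMM, quasi-likelihood fit, Benjamini-Hochberg adjustment over all genes of a class, called at an adjusted p under 0.05) in R 4.3.3. Sex was a covariate of the age and hyperoxia fits and condition of the sex fit. There is 1 library per sex and condition, so the age and hyperoxia fits leave 1 residual degree of freedom and the sex fit 2. The p-values and SEs thus draw on a spread that edgeR shares over the genes of a class. They do not measure the spread between replicate libraries of a group, of which there are none. SEs of the edgeR fits were computed from the log2 difference and the F statistic. Age and hyperoxia fits without 1 library drop sex, since no residual degree of freedom is left with it, while the sex fit without 1 library keeps condition. The script was tested on simulated counts. DESeq2 1.42.0 was an alternative. Levels are given as CPM of the summed counts with exact Poisson intervals, shares with exact binomial intervals and ratios with exact intervals of the 2 counts (95% each), which cover counting error only.

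Doublets were kept in the main values and left out in an alternative. Scrublet (scanpy 1.11.5) marked 0.0887% of male day 1 cells by its own cutoff, so the highest scores were taken instead, at 0.8% per 1000 barcodes (8.43% to 12.0% of cells).

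The text names the 8 members in every class, genes of the pathway lists that passed in an endothelial class (at most 5 rises and 5 falls per comparison, by size), and the 10 genes most like the set over all and over endothelial sums (mean CPM of at least 5). Cd274, H2-K1, Ifng, Rfx5, Gbp4 and marker genes given with their levels were chosen after their values were seen. The members and lists were chosen with earlier results of these data known. Some results of the lists are not reported here.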

Additional observations from a re-analysis of the deposited data

Results flagged for a closer look

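In several classes the hyperoxia over room air ratio of a member pointed in opposite directions in the 2 sexes. Each ratio rests on 1 library per arm, and the difference between the sexes was not tested. In venous endothelium the ratio of H2-Ab1 was 1.88 in females and 0.334 in males, and that of Cd74 was 2.44 and 0.165. The venous ratios rest on the few UMIs given above, and the part of leukocytes in them was not tested. In B cells Cd74 gave 1.08 and 0.710, and H2-DMb2 gave 1.15 and 0.746. Cd74 in alveolar macrophages gave 0.619 and 1.24, H2-DMa in classical monocytes 1.12 and 0.824, and Cd74 in myofibroblasts 14.4 and 0.103.

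Among barcodes to which the authors gave no class, the following levels after hyperoxia had a counting interval above both room air libraries. The share of all genes that did so was not computed, and nothing is read from the number of members. In the male hyperoxia library they held H2-Aa at 1510 CPM, H2-Ab1 at 1547, H2-Eb1 at 1227, H2-DMa at 223, H2-DMb1 at 141.03, Cd74 at 4799 and Ciita at 56.8. The male room air values were 917, 864, 724, 159, 81.9, 3188 and 40.6 CPM. In the female hyperoxia library H2-Ab1 was at 917, H2-Eb1 at 742 and H2-DMa at 168 CPM, against 895, 717 and 135 in female room air. Against female room air alone, Cd74 (3095 against 2672 CPM) and H2-DMb2 (48.8 against 26.7) were higher as well, while Ciita (40.001 against 44.02), H2-DMb1 (86.1 against 90.01) and H2-Aa (899 against 899.6) were not. In males H2-DMb2 was lower after hyperoxia (57.3 against 67.03 CPM). Barcodes without a class held 90.4% of all Cd74 UMIs of the male hyperoxia library, 59.1% of female hyperoxia, 63.3% of male room air and 36.4% of female room air. In male hyperoxia 650 of the 731 barcodes with at least 500 UMIs and at least 1% of them from Cd74 had no class. Of those 650, 54.9% held Flt3 or Zbtb46 and 45.5% held Cd79a.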

How the results depend on the processing

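The age rise of the members in gCap was called under all 11 alternatives, and the count of called pairs ran from 40 to 55 against 50. The hyperoxia median in gCap ran from -2.52 to -2.11, and from -3.21 to -1.03 when 1 library was left out. With B marker cells alone, chosen after seeing the data, the age differences in B cells reversed to 1.18 (H2-Aa), 0.88 (H2-Ab1), 1.29 (H2-Eb1), 0.88 (H2-DMa), 0.44 (H2-DMb1) and 0.74 (Cd74), and Cd74 was at 0.55 with doublets left out, where 4 of the 5 lower calls in B cells were lost. The pathway calls after hyperoxia fell to 6 with DESeq2 and 4 with no covariate, and ran from 22 (without male room air) to 68 (without female room air) when 1 library was left out. The age calls of pathway genes fell to 97 with DESeq2. The sex comparison of the members gave 15 calls without the filter on low counts and 0 to 16 when 1 library was left out. Leaving out a library removes samples and, in the age and hyperoxia fits, the sex covariate too, so those counts come from fits of another form. The cause was otherwise not tested. The share of all genes called under each alternative is not given here, and nothing is read from the counts of calls. The share of gCap cells with H2-Ab1, in the order female and male room air and female and male hyperoxia, was 24.4%, 40.7%, 14.2% and 13.6% without thinning and 1.82%, 10.99%, 0.372% and 0.524% at 2 or more UMIs, and 7.84% in female room air without doublets. H2-DMb2 in endothelial cells and Ciita in aCap, arterial and venous cells rest on few UMIs, so that differences there are limited by depth.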
